A study of Mus musculus with 8 samples.

Results

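The genes described here are 37 genes of blood and lymphatic endothelium, the single layer of cells that lines vessels, followed in RNA from mouse pancreas cells. They were taken by symbol from the deposited count table, which holds 23284 gene symbols, and all 37 were found. The cells came from Dclk1-CreERT;tdtomato mice of strain CBA x C57BL/6J, in which a Cre recombinase that tamoxifen activates is expressed from Dclk1 and tdTomato is a red fluorescent reporter of its action. Of the 8 libraries, 4 were of cells labelled Dclk1 positive (libraries 1 to 4) and 4 of cells labelled Dclk1 negative (libraries 5 to 8). All 8 carried the same alleles, strain and tissue labels. The labels name no age, no dose or time of an agent that induces Cre, and no gate by which the cells were separated. A reporter switched on by Cre also stays on in descendants of the cells that expressed Dclk1. Nothing in the labels said that libraries of 1 group came from different mice, so the p-values measure the spread between libraries, which may be technical.

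Endothelial cells are held together by junction proteins such as VE-cadherin and receive growth and survival signals through receptor tyrosine kinases for VEGF (vascular endothelial growth factor) and angiopoietin ligands. Factors of the ETS and SOX families drive this gene program in the embryo and maintain it in the adult. Pancreas is densely vascularised, and islets in particular hold fenestrated capillaries, whose pores are closed by a diaphragm built from the Plvap protein. Several of these genes are not private to vessels. Pecam1, Icam2, Fli1 and Cd93 are also used by blood leukocytes, Lyve1 by some macrophages, Pdpn by fibroblast-type cells and Prox1 by pancreatic epithelium.

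The promoters of 4 of the genes are printed because their levels fell into a pair of opposite patterns. Kdr and Flt1, both VEGF receptors, were low in Dclk1+ library 2, whereas Tek and Pdpn were highest there. The 4 are picked examples, since 32 of the 37 members had their lowest Dclk1+ value in library 2 and Tmem100 was also highest there. The sequences are the 250 bases before the RefSeq start site, in build GRCm38.p6 (another build than that of the counts), 5′ to 3′ on the gene's strand. Capitals mark GGAAG or its reverse complement CTTCC, the core that ETS factors such as Erg and Fli1 bind, and ACAAT or its reverse complement ATTGT, which SOX factors bind. None of the 4 promoters held both motifs, so no matches of the pair overlapped.
Kdr (chr5:75978456-75978705, - strand): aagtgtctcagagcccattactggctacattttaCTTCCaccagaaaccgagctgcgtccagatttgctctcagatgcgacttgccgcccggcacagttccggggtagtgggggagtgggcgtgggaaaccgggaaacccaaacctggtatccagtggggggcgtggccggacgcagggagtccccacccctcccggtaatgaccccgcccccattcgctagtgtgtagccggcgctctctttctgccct
Flt1 (chr5:147726012-147726261, - strand): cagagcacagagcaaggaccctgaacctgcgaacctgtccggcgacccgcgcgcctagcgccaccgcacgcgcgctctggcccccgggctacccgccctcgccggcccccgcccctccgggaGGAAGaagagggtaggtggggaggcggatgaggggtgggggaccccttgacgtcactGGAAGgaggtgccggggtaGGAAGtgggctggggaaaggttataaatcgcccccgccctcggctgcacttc
Tek (chr4:94739039-94739288, + strand): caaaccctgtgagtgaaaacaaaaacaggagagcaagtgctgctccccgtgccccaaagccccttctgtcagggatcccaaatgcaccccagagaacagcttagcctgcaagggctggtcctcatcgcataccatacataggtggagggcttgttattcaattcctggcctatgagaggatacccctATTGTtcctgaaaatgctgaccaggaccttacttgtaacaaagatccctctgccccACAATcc
Pdpn (chr4:143299565-143299814, - strand): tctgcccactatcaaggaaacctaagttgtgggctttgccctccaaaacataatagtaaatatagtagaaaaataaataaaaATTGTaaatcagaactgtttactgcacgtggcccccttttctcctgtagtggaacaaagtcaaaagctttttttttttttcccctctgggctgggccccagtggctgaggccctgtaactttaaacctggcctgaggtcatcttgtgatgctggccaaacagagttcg
The GGAAG word was found 1 time for Kdr, 3 times for Flt1 and 0 times for Tek and Pdpn. ACAAT was found 2 times for Tek, 1 time for Pdpn and 0 times for the other pair. Among all 32851 promoters of this length in the table, 64.1% hold GGAAG and 27.7% hold ACAAT on either strand. The table has 23 promoters for 17 of the 37 members, of which 17 promoters (73.9%) hold GGAAG and 5 (21.7%) hold ACAAT. A match is only a run of letters in the window, not a binding site.

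Total counts ran from 6353841 to 10282911 per library, and 1 count was worth 0.102 to 0.193 CPM (the count scaled to a common library size after TMM normalization). A count of 0 leaves levels of up to 3 counts possible, or 0.306 to 0.579 CPM, by counting error alone. Between 8.90% and 34.2% of counts fell on the ribosomal RNA gene Rn45s, with the highest shares in Dclk1- libraries 7 and 8. Dclk1 itself had a mean of 106 ± 90.1 CPM in the 4 libraries labelled positive, against 9.98 ± 6.05 CPM in those labelled negative (SD), in the direction of the labels. Lymphocyte markers summed to 51.8 to 1264 CPM in Dclk1+ and 3861 to 5048 CPM in Dclk1- libraries, with 9 of 9 detected in every library. All 9 were lower in every Dclk1+ library, against 10.9% of all genes tested, and 1 (Zap70) was called, against 3.49%. Of the acinar markers, led by Ctrb1 and Cpb1, 6 of 7 were tested and 0 called, with sums of 13121 to 55473 CPM in Dclk1+ and 3047 to 63078 CPM in Dclk1- libraries. In what follows the values of a gene are listed in the order of Dclk1+ libraries 1, 2, 3 and 4 and Dclk1- libraries 5, 6, 7 and 8. In bulk RNA, fewer cells of a type and less RNA per cell cannot be told apart.

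The summed level of the 37 genes differed widely between libraries of the same group. The 37 genes together took 0.764%, 0.0975%, 0.365% and 0.281% of all counts in Dclk1+ and 0.151%, 0.255%, 0.0447% and 0.0530% in Dclk1- libraries, with 95% Wilson intervals no wider than 0.758% to 0.770% (counting error only). This averaged 0.377% ± 0.281 for Dclk1+ and 0.126% ± 0.0987 for Dclk1- cells (SD over 4 libraries), 0.248% without Dclk1+ library 1 and 0.0828% without Dclk1- library 6. Dclk1+ library 1 was the richest by far, Dclk1+ library 2 lay below Dclk1- libraries 5 and 6, and Dclk1- libraries 7 and 8 had least. The 37 include genes shared with other cells, so this share is not endothelial RNA alone. The 18 core genes described below gave 4220.2 of 7418 CPM in Dclk1+ library 1, but 92.1 of 1023 CPM in Dclk1+ library 2. In Dclk1- libraries 7 and 8 they gave 46.4 of 581 CPM and 36.9 of 562 CPM. Of the 37 genes, 30 were highest in Dclk1+ library 1, 32 had their lowest Dclk1+ value in library 2, and 28 were higher in both Dclk1- libraries 5 and 6 than in libraries 7 and 8. All 37 had counts in Dclk1+ libraries 1, 3 and 4 and Dclk1- libraries 5 and 6. Sox17 alone had none in Dclk1+ library 2, and 7 and 6 genes had none in Dclk1- libraries 7 and 8.

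**Figure D1:**
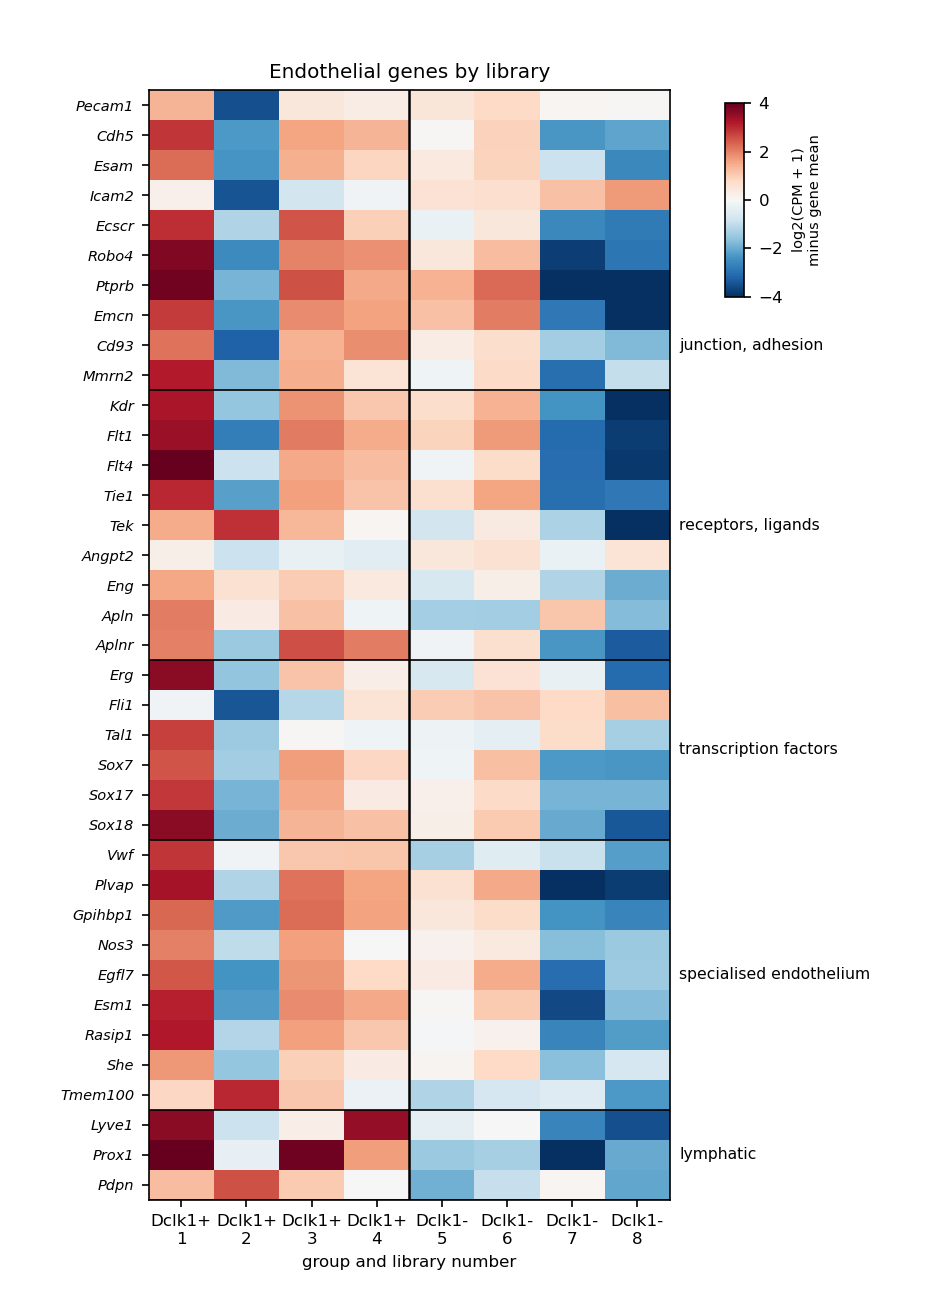
Level of each of the 37 genes (vertical, by role) in each library (horizontal), as log2(CPM + 1) minus the gene's mean over the 8 libraries, with colours that stop at 4 units either way. Most genes are red in Dclk1+ libraries 1, 3 and 4, blue in Dclk1+ library 2 and Dclk1- libraries 7 and 8, and pale red in Dclk1- library 6. Others depart from this in part, among them Pecam1, Icam2, Fli1, Tek, Tmem100, Pdpn, Eng, Apln, Angpt2 and Prox1.

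None of the 37 genes passed the test of Dclk1+ against Dclk1- cells. All 37 were abundant enough to be tested, 34 had a positive and 3 a negative log2 fold change, and the median was 1.97, against -0.08 over all 13274 genes tested, of which 47.1% were above 0. In edgeR's quasi-likelihood test 0 of 37 had an adjusted p under 0.05, and 3.49% of all genes tested did. At an unadjusted p under 0.05 there were 11 of 37 (29.7%, 9 higher and 2 lower), close to the 31.9% of all genes. An edgeR adjusted p under 0.1 was reached by 7 of 37 (18.9%), against 21.1% of all genes. The smallest edgeR adjusted p was 0.0503, for Prox1. Limma-voom also called 0 of 37 (6.64% of all genes), and DESeq2 called 9 of 37, or 24.3%, all higher, where it called 24.0% of all genes. EdgeR called 6 of 37 without Dclk1+ library 4 (18.4% of all genes), 4 without a filter on low counts (5.72%), 2 with another scaling of the libraries, RLE (6.46%), and 1 without the counts of Rn45s (5.21%). Of the 37, 31 overlapped between the groups, 4 were higher in every Dclk1+ library than in any Dclk1- library (10.8%, against 10.7% of all genes) and 2 were lower (5.41% against 10.9%). In all, 16.2% of these genes and 21.6% of all genes did not overlap. The standard errors were wider than for other genes, with a median of 1.18 against 0.51 on the log2 scale. Libraries 1 and 6 set much of the size, since the median fold change of the 37 genes was 1.11 without Dclk1+ library 1 and 2.97 without Dclk1- library 6. With 1 library left out, the number at an unadjusted edgeR p under 0.05 ran from 7 (18.9%, without Dclk1- library 8) to 18 (48.6%, without Dclk1+ library 2). The share of all genes was 25.3% and 25.9% in these fits, so the endothelial genes lay below it in the first and above it in the second.

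**Figure D2:**
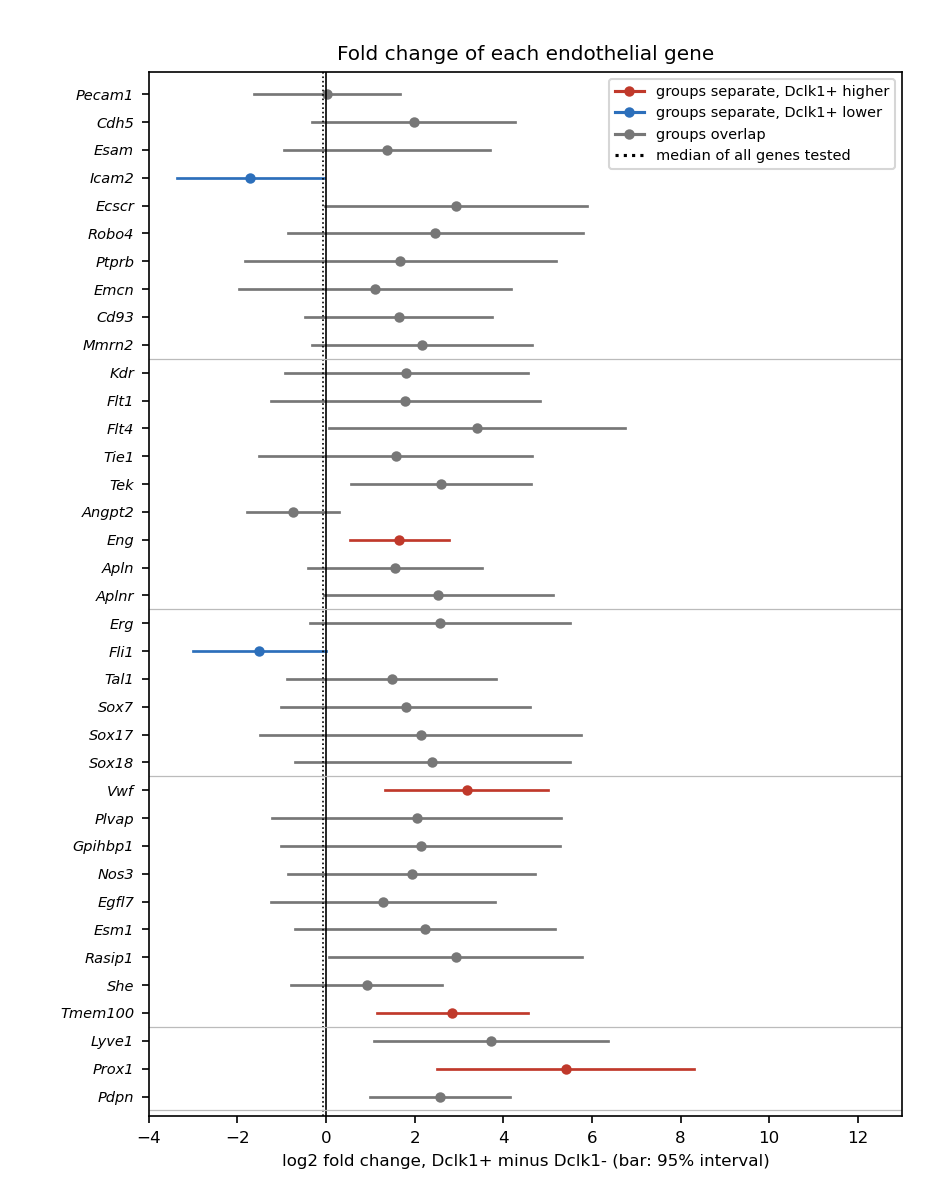
Log2 fold change of each gene, Dclk1+ minus Dclk1- (horizontal), with its 95% interval from edgeR, by role from junction genes at the top to lymphatic genes at the bottom. Coloured genes are the 6 whose groups do not overlap, and the dotted line is the median of all genes tested (-0.08); most points lie right of it with intervals that cross 0.

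Junction and adhesion genes had 9 positive and 1 negative fold change among 10, with a median of 1.66. Cdh5 encodes VE-cadherin, which joins endothelial cells to each other, and was at 449, 11.5, 184 and 156 CPM in Dclk1+ and at 63.2, 116, 11.2 and 13.2 CPM in Dclk1- libraries. Dclk1+ libraries 1, 3 and 4 were above all Dclk1- libraries, and Dclk1+ library 2 was as low as Dclk1- libraries 7 and 8, so the groups overlapped. Its log2 fold change was 1.97 ± 1.02 (SE, 95% interval -0.31 to 4.26, edgeR adjusted p = 0.210). Ptprb, the phosphatase VE-PTP that restrains VE-cadherin and Tie2 signalling, was at 1232, 22.4, 491 and 238 CPM in Dclk1+ and at 217, 399, 0.579 and 4.34 CPM in Dclk1- libraries. Its range within Dclk1- libraries, from 3 counts in library 7 to 3290 counts in library 6, was wider as a ratio than within Dclk1+ libraries, and its fold change of 1.67 ± 1.57 was close to its own error. Cd93, a C-type lectin-like receptor of endothelium and myeloid cells, was at 358, 7.45, 206 and 287 CPM in Dclk1+ and at 95.3, 128, 29.0 and 22.2 CPM in Dclk1- libraries, low in Dclk1+ library 2 alone among Dclk1+ libraries. Its log2 fold change was 1.64 ± 0.94. Macrophage and myeloid markers summed to 62.9 to 7769 CPM in Dclk1+ and 473 to 1229 CPM in Dclk1- libraries, highest in library 4, and their part in Cd93 was not tested.

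Emcn, the sialomucin endomucin of capillaries and veins, and Esam, an adhesion molecule of tight junctions, were also highest in Dclk1+ library 1. Emcn was at 188, 4.39, 99.7 and 81.0 CPM in Dclk1+ and at 59.2, 111, 2.70 and 0.334 CPM in Dclk1- libraries, and Esam was at 50.9, 1.12, 28.5 and 18.9 CPM in Dclk1+ and at 13.2, 19.2, 5.02 and 0.835 CPM in Dclk1- libraries. Dclk1- library 6 was above Dclk1+ library 4 for each of them. Robo4, a receptor that stabilises vessels, was at 176, 1.33, 53.5 and 47.4 CPM in Dclk1+ and at 17.8, 31.4, 0 and 0.835 CPM in Dclk1- libraries. Mmrn2, a matrix ligand of Cd93, was at 112, 2.75, 33.4 and 17.3 CPM in Dclk1+ and at 10.1, 20.4, 0.579 and 5.51 CPM in Dclk1- libraries. Ecscr, a small endothelial surface protein, was at 53.4, 2.04, 39.1 and 12.8 CPM in Dclk1+ and at 4.85, 8.73, 0.193 and 0 CPM in Dclk1- libraries. These 3 had log2 fold changes of 2.47, 2.17 and 2.93, the last with an unadjusted p of 0.0521 and an edgeR adjusted p of 0.160. None of the 3 separated the groups, since Dclk1+ library 2 was below Dclk1- libraries 5 and 6. Exons of Ecscr overlap 1700066B19Rik on the opposite strand, so its counts are uncertain unless strand was used.

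Pecam1 and Icam2 did not follow Cdh5. Pecam1, the adhesion protein CD31 of endothelium, platelets and many leukocytes, was at 390.5, 12.3, 208 and 184 CPM in Dclk1+ and at 209, 259, 159 and 154 CPM in Dclk1- libraries. Dclk1+ library 1 was above and Dclk1+ library 2 below all Dclk1- libraries, the other Dclk1+ libraries lay within their range, and Dclk1- libraries 7 and 8 were not low in it, where Cdh5 was at 11.2 and 13.2 CPM. Its log2 fold change of 0.02 ± 0.74 became -0.71 under limma-voom, -0.54 without Dclk1+ library 1 and -0.09 without Dclk1- library 8, with no call in any of these. Icam2, an adhesion ligand on endothelium and lymphocytes, was at 23.2, 0.918, 11.7 and 18 CPM in Dclk1+ and at 30.0, 32.5, 46.2 and 67.0 CPM in Dclk1- libraries. Every Dclk1- library was above every Dclk1+ library, with a log2 fold change of -1.71 ± 0.74 (unadjusted p = 0.0445, edgeR adjusted p = 0.147). Of the lymphocyte markers, Ptprc (CD45, on all leukocytes) was at 185, 23.7, 107 and 601 CPM in Dclk1+ and at 2284, 2050.5, 841 and 1022 CPM in Dclk1- libraries. Cd3e, of the T cell receptor complex, was at 53.7, 2.96, 33.6 and 155 CPM in Dclk1+ and at 333, 229, 1316 and 1078 CPM in Dclk1- libraries. All 9 of these markers were higher in every Dclk1- library, and their part in the levels of Pecam1, Icam2 and Fli1 was not tested.

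**Figure D3:**
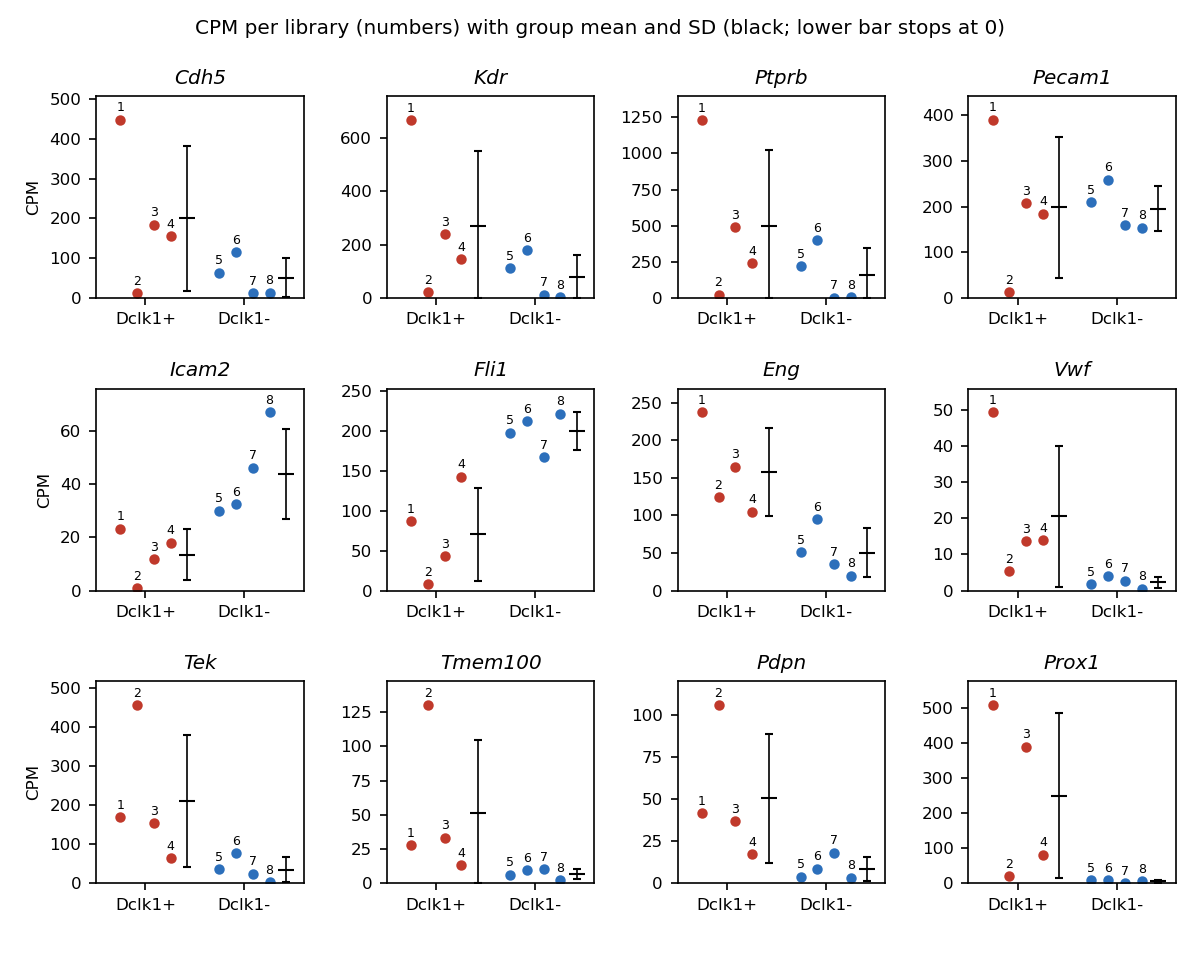
CPM of 12 genes in each library (points, with the library number) and the group mean ± SD (black bars, n = 4 each, lower bar stopped at 0). Cdh5, Kdr and Ptprb share a high library 1 and a low library 2, Icam2 and Fli1 are higher in all Dclk1- libraries, and Tek, Tmem100 and Pdpn are highest in library 2.

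Receptors and their ligands had 8 positive and 1 negative fold change among 9, with a median of 1.79. Kdr, the main signalling receptor for VEGF-A, was at 669, 22.6, 239.8 and 145 CPM in Dclk1+ and at 111, 180.0, 12.2 and 2.67 CPM in Dclk1- libraries, and Flt1, a decoy-like VEGF receptor, was at 583, 6.73, 223 and 148 CPM in Dclk1+ and at 98, 171, 5.21 and 2.84 CPM in Dclk1- libraries. Both were above 100 CPM in Dclk1+ libraries 1, 3 and 4, and Dclk1- library 6 was above Dclk1+ library 4 for both. Their log2 fold changes were 1.81 ± 1.22 and 1.79 ± 1.35 (edgeR adjusted p = 0.327 and 0.380). Tie1, an orphan receptor that modulates Tie2, was at 76.0, 1.12, 28.8 and 20.3 CPM in Dclk1+ and at 14, 27.7, 0.193 and 0.334 CPM in Dclk1- libraries, with a log2 fold change of 1.57 ± 1.37. Flt4, the VEGF-C receptor of lymphatic and fenestrated endothelium, was at 307, 7.04, 40.7 and 33.4 CPM in Dclk1+ and at 12.3, 23.1, 0.773 and 0 CPM in Dclk1- libraries. Library 1 held most of its signal, and the log2 fold change was 3.41 ± 1.49 with it and 1.57 without it (edgeR adjusted p = 0.150 with all libraries).

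Tek departed from the other receptor kinases. It encodes Tie2, the angiopoietin receptor, and was at 170.0, 457, 153 and 63.5 CPM in Dclk1+ and at 35.9, 77.3, 24.1 and 2.34 CPM in Dclk1- libraries. The highest level was in Dclk1+ library 2, where Kdr, Flt1 and Tie1 were at 22.6, 6.73 and 1.12 CPM. The log2 fold change was 2.59 ± 0.91 (95% interval 0.56 to 4.63, unadjusted p = 0.0179, edgeR adjusted p = 0.0927), and Dclk1+ library 4 lay below Dclk1- library 6. Without Dclk1+ library 2 it was 1.88. Eng, the TGF-beta co-receptor endoglin of proliferating endothelium and some stromal and myeloid cells, was at 238, 124, 165 and 105 CPM in Dclk1+ and at 51.0, 95, 34.8 and 19.7 CPM in Dclk1- libraries. Every Dclk1+ library was above every Dclk1- library, by 105 against 95 CPM at the nearest. Its log2 fold change was 1.66 ± 0.50 (edgeR adjusted p = 0.0681). Eng shares exon bases on the opposite strand with Fpgs, so its counts are uncertain unless strand was used.

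Aplnr, the apelin receptor, was at 47.2, 3.27, 68.9 and 48.3 CPM in Dclk1+ and at 9.70, 17.4, 1.35 and 0.167 CPM in Dclk1- libraries, and was highest in Dclk1+ library 3. Apln, its peptide ligand from sprouting tip cells, was at 33.0, 9.49, 17.7 and 6.33 CPM in Dclk1+ and at 2.20, 2.18, 17 and 1.5 CPM in Dclk1- libraries. The ligand was at 17 CPM in Dclk1- library 7, where the receptor was at 1.35 CPM. Their log2 fold changes were 2.54 ± 1.15 and 1.55 ± 0.88, and that of Apln was 3.16 without Dclk1- library 7 (edgeR adjusted p = 0.0671). Angpt2, the angiopoietin that antagonises Tie2 in many settings, was between 3.47 and 8.66 CPM in Dclk1+ and between 5.79 and 11.5 CPM in Dclk1- libraries, with a log2 fold change of -0.74 ± 0.46.

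The transcription factors gave 5 positive and 1 negative fold change among 6, with a median of 1.97. Fli1 and Erg are ETS factors that both act in endothelium, and Fli1 is also a factor of lymphoid and megakaryocyte cells. Fli1 was at 87.1, 8.16, 43.2 and 142 CPM in Dclk1+ and at 198, 212, 167 and 221 CPM in Dclk1- libraries. All Dclk1- libraries were above all Dclk1+ libraries, and the log2 fold change was -1.5 ± 0.67 (unadjusted p = 0.0497, edgeR adjusted p = 0.156). Erg was at 102, 1.84, 17.6 and 9.22 CPM in Dclk1+ and at 4.41, 11.5, 5.79 and 0 CPM in Dclk1- libraries, in the other direction at 2.57 ± 1.3. Without Dclk1+ library 1 the log2 fold change of Erg was 0.80.

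The SOX factors of the F group, which act in arterial and lymphatic specification, were highest in Dclk1+ library 1, as Cdh5 was. Sox18 was at 126, 1.63, 25.4 and 22.2 CPM in Dclk1+ and at 11.2, 20.3, 1.54 and 0 CPM in Dclk1- libraries, and Sox7 was at 32.5, 1.22, 17.6 and 9.44 CPM in Dclk1+ and at 4.26, 12.6, 0.193 and 0.167 CPM in Dclk1- libraries. Sox17 was at 25.1, 0, 9.37 and 3.56 CPM in Dclk1+ and at 3.23, 5.22, 0 and 0 CPM in Dclk1- libraries, with no count in Dclk1+ library 2 and Dclk1- libraries 7 and 8. Their log2 fold changes were 2.40 ± 1.39, 1.8 ± 1.25 and 2.13 ± 1.61, none called. Tal1, a factor of blood and endothelial precursors and of erythroid cells, was at 32.3, 0.816, 4.19 and 3.44 CPM in Dclk1+ and at 3.38, 2.91, 7.34 and 1.0 CPM in Dclk1- libraries. One library carried its positive fold change, which went from 1.48 to -0.38 without Dclk1+ library 1. The erythroid gene Alas2 was at 1490.0 and 1205 CPM in Dclk1- libraries 7 and 8 and at most 36.1 CPM elsewhere. Of 9 erythroid and platelet markers 5 were tested and 0 called, the globin genes Hba-a1, Hbb-b1 and Hbb-b2 had 0 counts in all libraries, and the list summed to 14.8 to 159 CPM in Dclk1+ and 42 to 1559.5 CPM in Dclk1- libraries. Its part in Tal1 was not tested, and 0 counts of the globin genes cannot tell no expression from reads not assigned to them.

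Genes of specialised endothelium all had positive fold changes (9 of 9), with a median of 2.14. Plvap, the diaphragm protein of fenestrated capillaries, was at 186, 7.04, 82.3 and 54.3 CPM in Dclk1+ and at 27.5, 51.8, 0 and 0.334 CPM in Dclk1- libraries. Dclk1- libraries 7 and 8 held 0 and 2 counts of it, against 427 in library 6. Gpihbp1, which carries lipoprotein lipase to the capillary lumen, was at 29.5, 0.306, 28.3 and 17.9 CPM in Dclk1+ and at 7.49, 9.34, 0.193 and 0 CPM in Dclk1- libraries. Libraries 1 and 3 were nearly equal for Gpihbp1, whereas library 1 was more than 2 times library 3 for Plvap. Egfl7, a secreted protein of the vessel wall, was at 89.7, 2.14, 54.3 and 27.7 CPM in Dclk1+ and at 19.7, 45, 0.966 and 5.01 CPM in Dclk1- libraries. Its exons overlap those of Agpat2 on the opposite strand. Esm1, the tip cell proteoglycan endocan, was at 104, 1.53, 44.6 and 34.3 CPM in Dclk1+ and at 11.8, 24.4, 0 and 2.67 CPM in Dclk1- libraries. Fold changes of these 4 ran from 1.29 for Egfl7 to 2.23 for Esm1 on the log2 scale, with edgeR adjusted p from 0.263 to 0.449.

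Rasip1, a Ras-interacting protein needed for vessel lumens, was at 56.5, 1.74, 18.2 and 12.1 CPM in Dclk1+ and at 5.0, 6.07, 0 and 0.334 CPM in Dclk1- libraries (log2 fold change 2.93 ± 1.28). Nos3, the endothelial nitric oxide synthase, was at 12, 0.612, 9.04 and 2.22 CPM in Dclk1+ and at 2.64, 3.27, 0 and 0.167 CPM in Dclk1- libraries (log2 fold change 1.93 ± 1.25). She, an SH2 adaptor, was at 41.8, 3.47, 23.9 and 15.3 CPM in Dclk1+ and at 12.9, 21.4, 3.09 and 7.18 CPM in Dclk1- libraries. Its log2 fold change, 0.92 ± 0.76, was the smallest of these 9 genes. Rasip1 and Nos3 overlap Izumo1 and Atg9b in exons, so part of their counts is uncertain.

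Vwf and Tmem100 separated the groups. Vwf, the von Willebrand clotting factor of endothelium and platelets, was at 49.3, 5.31, 13.7 and 13.9 CPM in Dclk1+ and at 1.76, 4.0, 2.70 and 0.501 CPM in Dclk1- libraries. All Dclk1+ libraries were above all Dclk1- libraries, with library 1 highest, and the log2 fold change was 3.18 ± 0.82 (95% interval 1.33 to 5.02, edgeR adjusted p = 0.0539). The platelet integrin gene Itga2b was at 39.6 CPM in library 1 and at most 3.19 CPM elsewhere, whereas the platelet chemokine gene Pf4 was at 2.0 CPM in library 1 and 134 CPM in library 4. Ppbp, another platelet gene, was also highest in library 1, at 14.9 CPM against at most 5.58 CPM elsewhere, and Gp9 was too low to test. The part of these genes in Vwf was not tested. Without Dclk1+ library 1 the log2 fold change of Vwf was 2.27. Tmem100, a membrane protein induced by BMP9 and BMP10 through Acvrl1, was at 28.0, 130.2, 33.3 and 13 CPM in Dclk1+ and at 6.17, 9.34, 10.4 and 2.34 CPM in Dclk1- libraries. It peaked in Dclk1+ library 2, as Tek did, and its log2 fold change was 2.85 ± 0.76 (edgeR adjusted p = 0.0560). Without Dclk1+ library 2 it was 1.8 (edgeR adjusted p = 0.106).

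The 3 lymphatic genes had the highest median fold change of the role groups, 3.72, and each of them peaked in another set of libraries. Prox1, the homeobox factor that sets lymphatic identity and is also expressed in pancreatic progenitors, islet and duct cells, was at 509, 19.7, 390.4 and 81.9 CPM in Dclk1+ and at 8.37, 9.46, 0 and 5.51 CPM in Dclk1- libraries. Every Dclk1+ library was above every Dclk1- library, and the gene had 0 counts in Dclk1- library 7. It averaged 250.3 ± 237 CPM against 5.84 ± 4.23 CPM (SD over 4 libraries), and its log2 fold change was 5.41 ± 1.29 (95% interval 2.50 to 8.31, unadjusted p = 0.00210, edgeR adjusted p = 0.0503). Over 16 other settings its edgeR, DESeq2 or limma adjusted p ran from 3.23e-05 to 0.116, below 0.05 in 5 of them, and the fold change from 4.79 to 5.91. The 7 duct markers summed to 138 to 4159 CPM in Dclk1+ and 24.9 to 81.5 CPM in Dclk1- libraries, highest in library 3. Of these, 3 of 7 were called higher (Sox9, Krt8 and Spp1), where 3.49% of all genes tested were called. Spp1, the secreted protein osteopontin, was at 608, 73.5, 3259 and 550.4 CPM in Dclk1+ and at 45.5, 44.6, 9.66 and 24.6 CPM in Dclk1- libraries. Sox9, a factor of duct cells, was at 115, 36.1, 292 and 56.8 CPM in Dclk1+ and at 8.67, 11.4, 2.90 and 1.17 CPM in Dclk1- libraries. Only Cftr among the 7 was at 0 anywhere, in Dclk1- library 7, and the part of these genes in Prox1 was not tested.

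Lyve1, the hyaluronan receptor of lymphatic endothelium, sinusoids and some tissue macrophages, was at 699.6, 30.5, 66.9 and 656 CPM in Dclk1+ and at 42.3, 55.4, 8.11 and 4.01 CPM in Dclk1- libraries. Dclk1+ libraries 1 and 4 were far above the others, and library 2 was below Dclk1- libraries 5 and 6. The log2 fold change was 3.72 ± 1.18 (edgeR adjusted p = 0.0747). In library 4 the 9 macrophage and myeloid markers summed to 7769 CPM, with Lyz2 at 3789 and Mrc1 at 1010.4 CPM, against 289 CPM in library 1. All 9 were detected in every library and 0 were called. In library 1 Stab2, another hyaluronan receptor of sinusoidal endothelium, was at 289 CPM, against 13.9 CPM in library 4. The part of these genes in Lyve1 was not tested.

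Pdpn, the mucin podoplanin of lymphatic endothelium, fibroblasts and mesothelium, was at 41.7, 106, 36.8 and 17.4 CPM in Dclk1+ and at 3.82, 8.61, 18.2 and 3.34 CPM in Dclk1- libraries. Dclk1+ library 2 was highest and Dclk1+ library 4 just below Dclk1- library 7, so the groups overlapped. Its log2 fold change was 2.58 ± 0.71 (edgeR adjusted p = 0.0582), and 1.91 without Dclk1+ library 2. Tek, Tmem100 and Pdpn, of which Tek and Pdpn have their promoters printed above, were the 3 genes of the 37 that were highest in library 2. Of the 8 fibroblast markers 7 were highest in the same library, with a summed level of 39801 CPM against 6294 to 16807 CPM in the other Dclk1+ and 1329 to 9399 CPM in the Dclk1- libraries. Dcn and Fbn1, matrix genes of fibroblasts, reached 11759 and 14230.0 CPM there. Thy1, which lymphocytes also carry, was highest in Dclk1- library 7, at 1059 CPM against 328 CPM in library 2. Mesothelium markers, of which Wt1 and Lrrn4 were the most abundant, summed to 11.7 to 65.3 CPM in Dclk1+ and 5.09 to 71.3 CPM in Dclk1- libraries, and 0 of 4 tested were called. Wt1 made up nearly all of the sum in library 2, at 64.3 CPM, where the other 4 were at 0.612 CPM or less, and Upk3b, Lrrn4 and Upk1b were highest in Dclk1- library 7. All 8 fibroblast markers were detected in all libraries and 0 were called, and the mesothelium markers Msln, Upk3b, Lrrn4 and Upk1b were at 0 in 1 or 2 libraries each. Their part in Tek, Tmem100 and Pdpn was not tested.

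**Figure D4:**
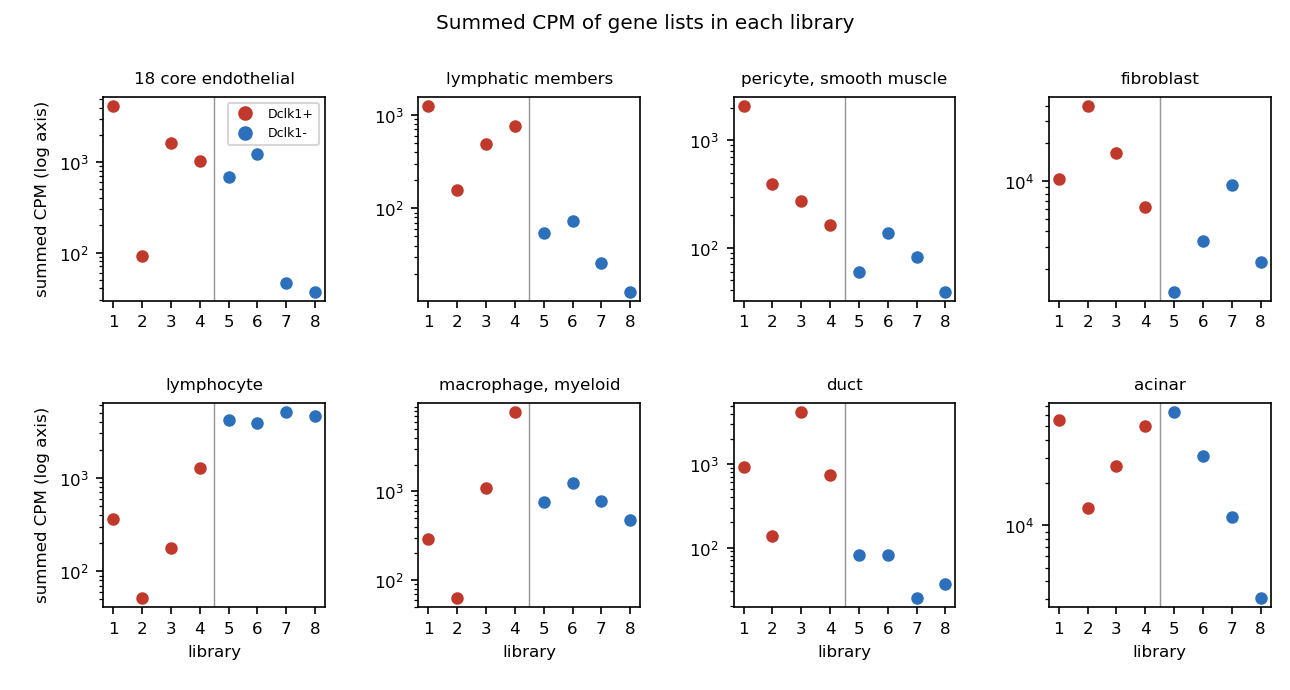
Summed CPM of 18 core endothelial genes, the 3 lymphatic genes and 6 marker lists of other cells (log axes) in libraries 1 to 8. The core endothelial sum falls to 92.1 CPM in library 2 and to 46.4 and 36.9 CPM in libraries 7 and 8, while fibroblast markers peak in library 2, lymphocyte markers are high in all Dclk1- libraries and macrophage markers peak in library 4.

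The 18 members taken as core endothelial genes leave out those shared with leukocytes or other cells. They also leave out some others, such as Gpihbp1, Esm1, Aplnr and She, so the list follows no single rule. Among these 18 genes the counts were divided alike for some genes and unlike for others. Library 2 and libraries 7 and 8 held the fewest of these counts. The 18 genes summed to 4220.2, 92.1, 1655 and 1026 CPM in Dclk1+ and to 686, 1239.7, 46.4 and 36.9 CPM in Dclk1- libraries. Library 1 was 45.8 times library 2, and library 6 was 26.7 times library 7. In Dclk1+ libraries 1, 3 and 4 and Dclk1- libraries 5 and 6, with 4673 to 38026 counts each, Flt1 made up 13.5% to 14.4% of the counts of these genes, Kdr 14.2% to 16.2%, Tie1 1.74% to 2.23% and Plvap 4.0% to 5.30%. Their summed level differed up to 6.15 times across the same libraries. Those 4 are among the 5 genes whose share differed by 1.5 times or less across these 5 libraries, and the other 13 differed by up to 3.75 times. Emcn was 4.45% in library 1 and 8.92% in library 6, Erg 2.41% and 0.930%, and Rasip1 1.34% and 0.489%. Dclk1+ library 2 held 903 counts, in which Flt1 was 7.31% (95% Wilson interval 5.79% to 9.19%) and Kdr 24.5% (21.8% to 27.4%), outside the ranges above by more than counting error, and Dclk1- libraries 7 and 8 held 240 and 221 counts, in which Cdh5 was 24.2% (19.2% to 30.0%) and 35.7% (29.7% to 42.3%). These shares are over counts, which longer transcripts raise, and they were not tested.

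**Figure D5:**
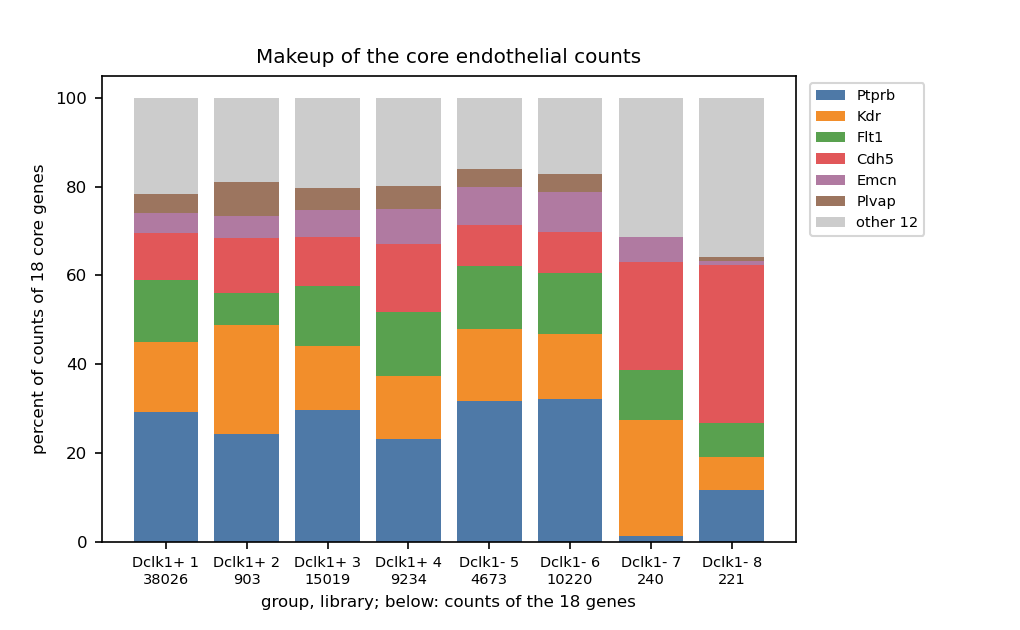
Percent of the counts of 18 core endothelial genes that each of 6 genes and the other 12 together took in each library (stacked bars), with the number of counts under each bar. Ptprb is at 23.2% to 32.2% in libraries 1, 3, 4, 5 and 6, library 2 has more Kdr and less Flt1 than these, and libraries 7 and 8, with 240 and 221 counts, have less Ptprb and more Cdh5.

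Of 30 further endothelial markers, 28 were tested, 2 were called higher (Ramp2 and Vcam1), 0 were called lower, and the median log2 fold change was 1.65. Fold changes were positive for 25 and negative for 3. The groups did not overlap for 7 that were higher (10.7% of all genes) and for the 3 negative ones, Sele, S1pr1 and Lmo2 (10.9%). Sele, or E-selectin, was low, at 0 to 1.33 CPM in Dclk1+ and 4.01 to 7.49 CPM in Dclk1- libraries (log2 fold change -3.13 ± 0.93, edgeR adjusted p = 0.0667). For this list and those below, the share called among all genes tested was 3.49%. Ramp2, the adrenomedullin receptor partner, was at 70.6, 49.4, 39.3 and 21.8 CPM in Dclk1+ and at 7.05, 13.5, 11 and 3.51 CPM in Dclk1- libraries, with every Dclk1+ library above every Dclk1- library (log2 fold change 2.37 ± 0.51, edgeR adjusted p = 0.0487). Vcam1, an adhesion molecule of activated endothelium and of stromal cells, was at 273, 58.2, 63.7 and 55.8 CPM in Dclk1+ and at 18.9, 11.6, 24.5 and 19.9 CPM in Dclk1- libraries (log2 fold change 2.59 ± 0.59, edgeR adjusted p = 0.0492). The most abundant of this list were Cd34, S1pr1 and Gpr116. Cd34, a sialomucin of endothelium and fibroblasts, was highest in library 2 at 1021 CPM. S1pr1, a sphingolipid receptor of endothelium and lymphocytes, had a log2 fold change of -1.51 ± 0.77. Gpr116, an adhesion receptor of endothelium, was at 682, 22.6, 279 and 168 CPM in Dclk1+ and at 132, 259.5, 9.46 and 3.17 CPM in Dclk1- libraries, in the order of Kdr. Cldn5, the endothelial tight junction claudin, had 160 counts in library 1 and at most 22 in any other, and was too low to test.

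Of 10 genes listed as ligands and co-receptors of the VEGF and angiopoietin receptors, with thrombomodulin among them, 9 were tested, 2 were called higher (Vegfa and Angpt1) and 0 lower, with a median of 2.29. Vegfa, the ligand of Kdr and Flt1, was at 101, 119, 164 and 30.2 CPM in Dclk1+ and at 18.7, 15.7, 11.2 and 12.9 CPM in Dclk1- libraries (log2 fold change 2.82 ± 0.49, edgeR adjusted p = 0.0466). It was above 100 CPM in Dclk1+ library 2, where Kdr and Flt1 were low, and the ranges of the groups did not touch. Angpt1, the activating ligand of Tek made by mural and stromal cells, was at 25.0, 26.1, 60.6 and 8.55 CPM in Dclk1+ and at 5.14, 4.49, 0.773 and 1.84 CPM in Dclk1- libraries (log2 fold change 3.27 ± 0.74, edgeR adjusted p = 0.0492). The most abundant of the list were Thbd, Nrp1 and Nrp2. Thbd, the anticoagulant thrombomodulin, had a log2 fold change of 2.29 ± 0.71, and the VEGF co-receptors Nrp1 and Nrp2 of 1.51 ± 0.61 and 1.92 ± 0.62. These calls of Vegfa, Angpt1, Ramp2 and Vcam1 lay close to the threshold. So did those of Zap70, Sox9, Krt8 and Spp1 above and of Itga9 and Cd9 below. The edgeR adjusted p of these called genes ran only from 0.0466 to 0.0493. No gene of the genome was called when any single library other than Dclk1+ library 4 was left out.

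Of 17 Notch and BMP genes that act in vessels, 14 were tested and 0 were called. Of the 14, 11 had a positive fold change (median 2.10) and 5 an unadjusted edgeR p under 0.05, against 31.9% of all genes. Bmpr2, Notch1 and Jag1 were the most abundant, with log2 fold changes of 2.10 ± 0.68, -0.23 ± 0.50 and 3.27 ± 0.92. Of 9 further lymphatic genes 7 were tested, and 2 were called higher, the integrin subunit Itga9 and the tetraspanin Cd9, which many cell types express. Itga9 was at 290.3, 213, 198 and 81.3 CPM in Dclk1+ and at 18.7, 24.4, 34.0 and 6.85 CPM in Dclk1- libraries (log2 fold change 3.22 ± 0.56, edgeR adjusted p = 0.0466) and Cd9 was at 43.0, 52.9, 82.4 and 47.8 CPM in Dclk1+ and at 14.2, 15.8, 12.6 and 9.69 CPM in Dclk1- libraries (log2 fold change 2.11 ± 0.33, edgeR adjusted p = 0.0466). Efnb2, a ligand of arterial and lymphatic valve endothelium, had a log2 fold change of 1.70 ± 0.97. The lymphatic chemokine gene Ccl21a had 0 counts in all libraries, which cannot tell no expression from reads not assigned to the gene.

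Among cells that accompany vessels, 10 pericyte and smooth muscle markers were tested and 0 were called, with 10 positive fold changes and a median of 2.74. At an unadjusted edgeR p under 0.05 there were 8 of these 10, against 31.9% of all genes. The groups did not overlap for 5 of them, against 21.6% of all genes. The summed level of the 10 markers was 2096 CPM in Dclk1+ library 1, against 162 to 389.6 CPM in the other Dclk1+ and 39.1 to 137 CPM in the Dclk1- libraries. Myh11, a contractile gene of smooth muscle, and Pdgfrb, a receptor of pericytes and fibroblasts, were at 958 and 150.2 CPM in library 1. Of the 10 markers 8 were highest in library 1, and the pericyte genes Pdgfrb and Abcc9 were highest in library 2, at 207 and 99.4 CPM.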

How the data were processed

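RNA of 4 Dclk1+ and 4 Dclk1- pancreas cell samples was turned into amplified cDNA with a NuGEN Ovation kit and into Illumina TruSeq libraries, per the labels' protocols. The authors deposited raw read counts per gene symbol, 1 column per library, with no normalization. Per the submitters' processing notes, HTSeq 0.6.1 and build mm9 are named for every library. TopHat2 2.0.4 with Bowtie2 2.0.0 is named only for library 5 of the Dclk1- group, and TopHat with Bowtie 0.12.7 for each of the rest. No source used here gives the annotation, filters or strand setting. Exon overlaps were read from GENCODE on GRCm38, where 7 of the 37 genes overlap any other gene and 5 overlap another gene of the table. Prox1 and Sox17 overlap only genes that the table lacks, Prox1os and Gm37587, on the opposite strand. Their counts are therefore also uncertain unless strand was used.

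Genes were tested with edgeR 4.0.16 (R 4.3.3): filterByExpr (minimum count 10, minimum total 15), TMM scaling, a quasi-likelihood F test on group alone, and Benjamini-Hochberg adjustment over 13274 genes at a threshold of 0.05. Standard errors came from the F statistic. DESeq2 1.42.0, limma-voom (limma 3.58.1), 2 other scalings, 2 other filters, leaving out Rn45s and leaving out each library were the alternatives, with a replicate block added after seeing the data. Each tool was run on simulated counts with known changes, and pass limits were set only at a spread between libraries lower than in these data. Passing them does not show how well true changes are recovered at the spread seen here. Within groups, chi-square per degree of freedom was at least 19.8 for every pair of libraries, above counting error, and each was kept as a separate library. This cannot tell whether libraries came from the same sample amplified separately. The lowest value was for Dclk1- libraries 5 and 6, which were aligned with different tools and had a rank correlation (Spearman) of 0.972 over genes. The labels number the libraries 1 to 8 across both groups, whereas the deposited column names also number them 1 to 4 within each group. The members and lists were chosen with earlier results of these data known, so no list was tested. Values per library are given for each role group's 3 most abundant genes and each gene without overlap, and for others chosen after their values were seen. From each further list the called genes and the 3 most abundant are named, and other genes of these lists were chosen after their values were seen.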

Additional observations from a re-analysis of the deposited data

Results flagged for a closer look

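In 5 of 74 sets of 4 libraries (6.76%), 1 library stood apart from the other 3 of its group on the log2(CPM + 1) scale beyond Dixon's 95% critical value for 4 values, where chance gives about 1 in 20. In Dclk1+ library 2, Cd93 was at 7.45 CPM, Aplnr at 3.27 CPM and Gpihbp1 at 0.306 CPM, each below the other Dclk1+ libraries. In Dclk1- library 7, Apln was at 17 CPM, above the others of its group, and Angpt2 at 5.79 CPM, below them. Which of these reflect the cells and which the library was not tested.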

How the results depend on the processing

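The median log2 fold change of the 37 genes was positive under all 16 alternatives, from 1.95 to 2.99 on all 8 libraries and from 1.11 (without Dclk1+ library 1) to 2.97 (without Dclk1- library 6) with 1 library left out. The count of these genes called was 0 with the test as reported, 0 under limma-voom, upper-quartile scaling and the stricter filter, 1 without Rn45s (Prox1, where 5.21% of all genes were called), 2 with RLE scaling (Vwf and Prox1), 4 without a filter and 9 with DESeq2. It was 0 to 6 with 1 library left out, the 6 (Tek, Eng, Vwf, Tmem100, Prox1 and Pdpn) without Dclk1+ library 4. Over all genes 463 were called, 858 with RLE scaling, 1057 without a filter, 3687 with DESeq2 and 882 under limma-voom, and 0 to 2481 with 1 library left out. In the 7 fits with 0 calls, 3092 to 4005 genes had an unadjusted p under 0.05. The share called higher was 70.8% with the test as reported and 46.2% under limma-voom. The median of all genes moved by 0.26 with DESeq2, 0.22 without a filter, 0.16 without Dclk1- library 6 and 0.12 without Dclk1+ library 3. Only Pecam1 and Tal1 changed sign. Pecam1 was at -0.71 under limma-voom and between -0.54 and 0.41 with 1 library left out, and Tal1 between -0.38 and 2.15. The cause was not tested. With the numbers 1 to 4 of the deposited column names as a replicate block, an alternative chosen after seeing the data, edgeR called 1620 genes (12.2%) and 4 of the 37 (Tek, Eng, Tmem100 and Pdpn, 10.8%), and Pecam1 was at -0.37. Deviations from the group means correlated at -0.0956 to 0.29 over genes within the 4 same-numbered pairs, above 0.1 in 2 of them, and 3 of 8 libraries correlated best with their own number. The labels state no pairing, and correlations over 4 pairs cannot tell whether same-numbered libraries were matched. Counting error limits the genes at 3 counts or fewer, 13 and 14 of the 37 in Dclk1- libraries 7 and 8. Dclk1- library 5 had 0 such genes at a similar total, 6501733 counts against 6736202 and 6353841 in libraries 7 and 8.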
